A study of Trichoplusia ni and Spodoptera exigua with 20 samples.

Results

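The comparison of SFN with TSA in the fat body of *S*. *exigua* rests on 6 of the 20 RNA-seq libraries of the series, 3 of larvae fed SFN and 3 of larvae fed TSA, with no control library in the contrast. All larvae were wild type, were raised in individual wells on an artificial diet with antibiotics, and were dissected at approximately Day 10. The diet surface was coated with SFN (70 mM) or TSA (330 µM) in ethanol, which was evaporated before feeding, so that both groups had received the carrier. Each library pooled the fat bodies of 3 to 5 larvae. The members are all genes with a mean CPM (counts scaled to a common library total) of more than 10 over these 6 libraries, which were 5447 of the 18477 genes in the count table and of the 16339 with at least 1 count. The genes just inside and just outside this limit had mean CPMs of 10.005 and 9.998. The inhibitors were given at 1 dose each, and the doses differed, so the compound and its dose cannot be told apart.

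Histone deacetylases (HDACs) remove acetyl groups from histones, which generally compacts chromatin and lowers transcription. SFN (sulforaphane) is an isothiocyanate released from glucosinolates when cruciferous plants are chewed. TSA (trichostatin A) is a microbial hydroxamic acid that binds the zinc ion in the active site of classical HDACs, and it served as the pharmaceutical response control. The fat body of a caterpillar combines tasks that vertebrates divide between liver and adipose tissue. It stores lipid and glycogen, secretes storage proteins into the hemolymph, detoxifies dietary compounds and produces immune peptides. Comparing the inhibitors directly asks which fat body genes respond differently to the plant compound and to the drug.

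The count table names genes by identifiers only, and 0 of them matched the reference table used here, which is of *T*. *ni*. Gene names, pathways, HDAC genes and markers of fat body or of other cell types were therefore not analysed here, and no sequence is shown. Genes are described by level and by pattern over the libraries, and 4 of them by identifier. Without markers, fewer cells of a type and less RNA per cell cannot be told apart in these pooled tissues. Library depth ranged from 6352561 counts (SFN replicate 2) to 28543809 (TSA replicate 3), with the other libraries at 24984839 or more, so 10 CPM stood for 63.5 counts in SFN replicate 2 and for 250 to 285 counts elsewhere. SFN replicate 2 also stood apart in its expression, as described below, and some of the main counts are also given without it.

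No gene passed an adjusted p of 0.05 between SFN and TSA in the quasi-likelihood test of edgeR (0 of 5447, 0% called), where the lowest adjusted p was 0.152. An unadjusted p under 0.05 was found for 239 genes (4.39%), of which 170 were higher under SFN (3.12%) and 69 lower (1.27%). With no difference in any gene, a share of about 0.05 would pass this threshold. Most genes lay close together under both inhibitors. The median absolute log2 fold change was 0.29, 3910 genes (71.8%) had fitted values within 0.5 log2 units of 0, and the central 90% of log2 fold changes ran from -0.80 to 1.48. The upper tail was the longer one. Fitted expression was 2-fold or more higher under SFN for 390 genes (7.16%) and 2-fold or more lower for 177 (3.25%), and a difference of 16-fold or more was fitted for 49 genes in the direction of SFN and for 6 in the direction of TSA. The 2-fold counts were 566 higher and 478 lower without SFN replicate 3, and 591 and 453 without TSA replicate 3. Both directions were then closer in number. With any other library left out, 350 to 427 were higher and 166 to 253 lower. Other tests on all 6 libraries did call genes. The likelihood ratio test of edgeR called 97 (86 higher under SFN, 11 lower; 1.78%), DESeq2's Wald test 170 (143 higher, 27 lower; 3.12%) and limma-voom 9 (5 higher, 4 lower; 0.165%). The SFN and TSA libraries did not overlap for 43 of the 97 genes (44.3%), for 62 of the 170 (36.5%) and for 0 of the 9.

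**Figure D1:**
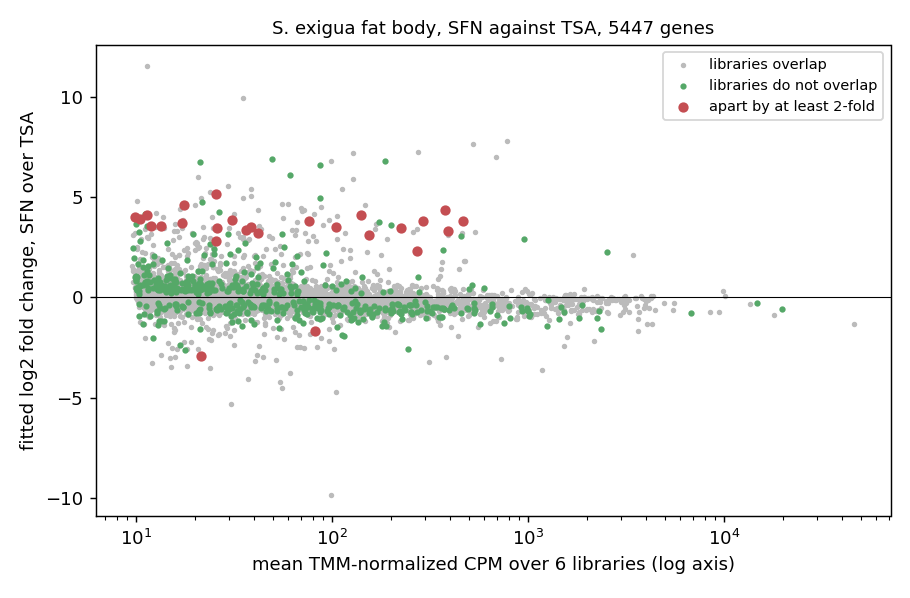
Fitted log2 fold change of SFN over TSA (vertical axis) against mean TMM-normalized CPM over the 6 libraries (horizontal log axis), with 1 point per tested gene. Green points mark genes whose SFN and TSA libraries do not overlap and red points the 26 genes whose libraries lie at least 2-fold apart, 24 above 0 and 2 below; most of the 5447 points lie near 0.

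A p above the threshold does not show that both inhibitors acted alike, so the interval of each difference was examined. The 95% interval of the log2 fold change lay wholly within a 2-fold change in either direction for 1378 genes (25.3%). For the other genes a difference of more than 2-fold was within the interval, whose median half-width was 0.95 log2 units. This share did not rise steadily with abundance. It was 22.5% of the 2315 genes at 10 to 30 CPM, 31.1% of the 1813 genes at 30 to 100 CPM, 21.6% of the 1123 genes at 100 to 1000 CPM and 25.5% of the 196 genes over 1000 CPM. In the opposite direction, the interval lay wholly beyond 2-fold for 75 of the 5447 genes. These intervals were not adjusted for the number of genes, and 0 genes were called. They also depend on the replicate number as a block in the model. The standard error of HF086_001933, described below, was 0.52 with the block and 2.25 without it. The count of 1378 was 1216 without SFN replicate 2 and 1105 without TSA replicate 2. It was 0, 1, 0 and 2 without SFN replicate 1, SFN replicate 3, TSA replicate 1 and TSA replicate 3 in that order, and the cause of this drop was not tested.

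In expression by library, the 3 SFN libraries all lay above the 3 TSA libraries for 264 genes (4.85%) and all below them for 261 (4.79%), which were nearly balanced on the TMM scale. Scaled by library size only, they numbered 367 and 139. With 3 libraries in each group, random labels would separate a gene completely, in either direction, with probability 0.1. The shares of both directions together are near that value. Of the 390 genes fitted 2-fold or more higher under SFN, 98 had libraries that did not overlap, and of the 177 fitted 2-fold or more lower, 46 did. The balance changed with a wider gap. Every SFN library was at least 2-fold above every TSA library for 24 genes (0.441%), and at least 2-fold below for 2 genes (0.0367%). Leaving out SFN replicate 1, 2 or 3 gave 39 and 21, 37 and 16, and 65 and 12 genes, higher first. Leaving out TSA replicate 1, 2 or 3 gave 152 and 5, 30 and 7, and 55 and 18. The size of this imbalance thus varied with the library left out. The gap of 2-fold was chosen after the values were seen, and these counts are descriptions.

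The 24 genes higher under SFN followed a common profile. Their median level was 39.4 CPM in SFN replicate 1, 130.7 CPM in SFN replicate 2 and 33.4 CPM in SFN replicate 3. In the TSA libraries it was 2.12, 8.21 and 7.80 CPM in replicates 1, 2 and 3. SFN replicate 2 held the highest SFN level for 22 of the 24 genes and SFN replicate 3 for the other 2. The lowest SFN library exceeded the highest TSA library by 2.02- to 7.25-fold (median 3.10-fold), and the fitted log2 fold changes ran from 2.32 to 5.13 (median 3.63). All 24 had an unadjusted p under 0.05, but their adjusted p values in the edgeR test ran from 0.611 to 0.968. The likelihood ratio test called 23 of them and DESeq2's Wald test 24, while limma-voom called 0. Without SFN replicate 2, 15 of the 24 were still over 10 CPM and 14 of these still lay at least 2-fold apart. The genes no longer over 10 CPM had passed the filter through their level in that library. With all libraries thinned to the depth of SFN replicate 2, all 24 stayed at least 2-fold apart. Without the replicate block the median log2 fold change of the 24 was again 3.63. The 24 were chosen from these same libraries by their gap. Their low p values, the calls and the stable fold change therefore follow in part from the choice and are not separate support. Many of them had TSA levels under 10 CPM and passed the filter only through their SFN levels.

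**Figure D2:**
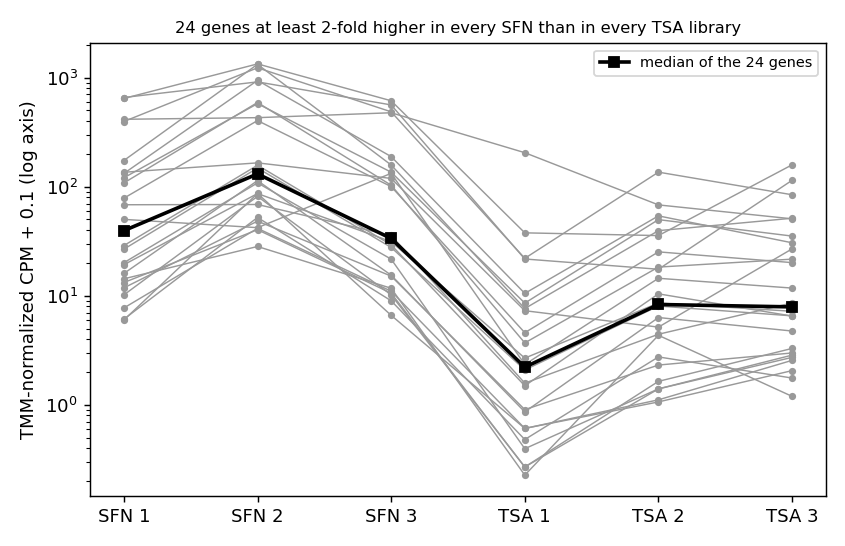
TMM-normalized CPM plus 0.1 (log axis) in each of the 6 libraries for the 24 genes that were at least 2-fold higher in every SFN library than in every TSA library, with 1 grey line per gene and the median in black. The median peaks in SFN replicate 2 at 130.7 CPM and is lowest in TSA replicate 1 at 2.12 CPM.

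Named genes are those of lowest p among the genes whose libraries do not overlap, 2 in each direction. HF086_010768 was higher under SFN and is 1 of the 24. Its level was 132.0 CPM in SFN replicate 1, 941 CPM in SFN replicate 2 and 188 CPM in SFN replicate 3. In TSA replicates 1, 2 and 3 it was 10.4, 53.8 and 30.5 CPM. All SFN libraries were above all TSA libraries, with the closest of them 2.45-fold apart and SFN replicate 2 far above the rest. SFN libraries averaged 420.5 ± 452 CPM (SD, n = 3), and TSA libraries averaged 31.6 ± 21.7 CPM (SD, n = 3). The log2 fold change was 3.48 (standard error 0.45, 95% interval 2.29 to 4.66, edgeR quasi-likelihood adjusted p = 0.611), and it stayed between 3.14 and 3.92 with each library left out in turn. Without the replicate number as a block in the model the log2 fold change was 3.73 with a standard error of 1.02 (edgeR adjusted p = 0.886).

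Tested genes with identifiers next to HF086_010768 carried the same profile. Of the 10 genes numbered within 5 places of it, 5 were expressed over 10 CPM. In all 5 the SFN libraries lay at least 2-fold above the TSA libraries, with log2 fold changes of 3.12 to 3.85 (median 3.50). The filter had a part in this. The genes numbered 1 place before and 1 and 4 places after averaged 4.77, 6.04 and 1.97 CPM under TSA. They passed the limit of 10 CPM only through their SFN levels. The remaining genes of the 10 were below the limit and were not examined. The gene numbered 3 places after it averaged 277 CPM under SFN and 31.1 CPM under TSA, and the gene numbered 5 places after it 194 and 16.5 CPM. The gene just before it was the most even of the 5 under SFN, with 68.1, 68.5 and 35.6 CPM in SFN replicates 1 to 3 against 1.48, 4.33 and 8.50 CPM in TSA replicates 1 to 3. In all, 11 of the 24 genes had another of the 24 within 5 places. Consecutive numbers are a property of the identifiers, and the positions of these genes in the genome were not looked up. Reads shared between near-identical copies were not looked for either, so the genes of such a run may not be independent measurements.

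HF086_001933 had the lowest p of any gene whose libraries do not overlap, but its levels were uneven. It stood at 258 CPM in SFN replicate 1, 3.11 CPM in SFN replicate 2 and 32.5 CPM in SFN replicate 3. In TSA replicates 1, 2 and 3 it stood at 2.62, 0 and 0.266 CPM. The 0 counts of TSA replicate 2 allow up to 3 counts, which is 0.115 CPM when scaled by library size only. SFN replicate 2 and TSA replicate 1 were thus only 1.19-fold apart, while SFN replicates 1 and 3 were far above every TSA library. The log2 fold change was 6.88 (standard error 0.52, 95% interval 5.50 to 8.27, edgeR quasi-likelihood adjusted p = 0.237). Fitted with no replicate block it was 6.66 with a standard error of 2.25 (edgeR adjusted p = 0.886). The fitted value was 6.74 to 7.18 with any 1 of the other libraries left out, but without SFN replicate 1 the gene fell below 10 CPM and was not tested. The gene of lowest p overall was of the same kind. It reached 211 CPM in SFN replicate 1 and at most 0.593 CPM in any other library, so that its groups overlapped, and its fitted log2 fold change was 9.96.

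Of the 2 named genes lower under SFN, HF086_006179 had the smaller spread within each inhibitor. Its level was 28.97, 44.5 and 46.9 CPM in SFN replicates 1, 2 and 3, and 118.5, 148 and 107 CPM in TSA replicates 1, 2 and 3. The groups were 2.28-fold apart at their closest, and the gene is 1 of the 2 with such a gap in this direction. SFN libraries averaged 40.1 ± 9.7 CPM (SD, n = 3) and TSA libraries 3.10-fold more, at 124.5 ± 21.4 CPM (SD, n = 3). The log2 fold change was -1.65 (standard error 0.32, 95% interval -2.50 to -0.80, edgeR quasi-likelihood adjusted p = 0.611), and -1.89 to -1.41 with single libraries left out. The genes numbered 4 and 5 places after it were also lower in all SFN libraries, with log2 fold changes of -0.83 and -0.73 (edgeR adjusted p = 0.968 for both).

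HF086_018454 was also lower under SFN, at 34.5 CPM in SFN replicate 1, 204 CPM in SFN replicate 2 and 35.2 CPM in SFN replicate 3. In TSA replicates 1, 2 and 3 it was 371, 589 and 235 CPM. SFN replicate 2 came within 1.15-fold of TSA replicate 3, while the other SFN libraries were far below. Its log2 fold change was -2.57 (standard error 0.50, 95% interval -3.89 to -1.26, adjusted p = 0.611 from the same edgeR test), with -3.08 to -2.09 when single libraries were left out. Its neighbours by number gave no such pattern, since all 4 tested genes within 5 places overlapped between the inhibitors.

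**Figure D3:**
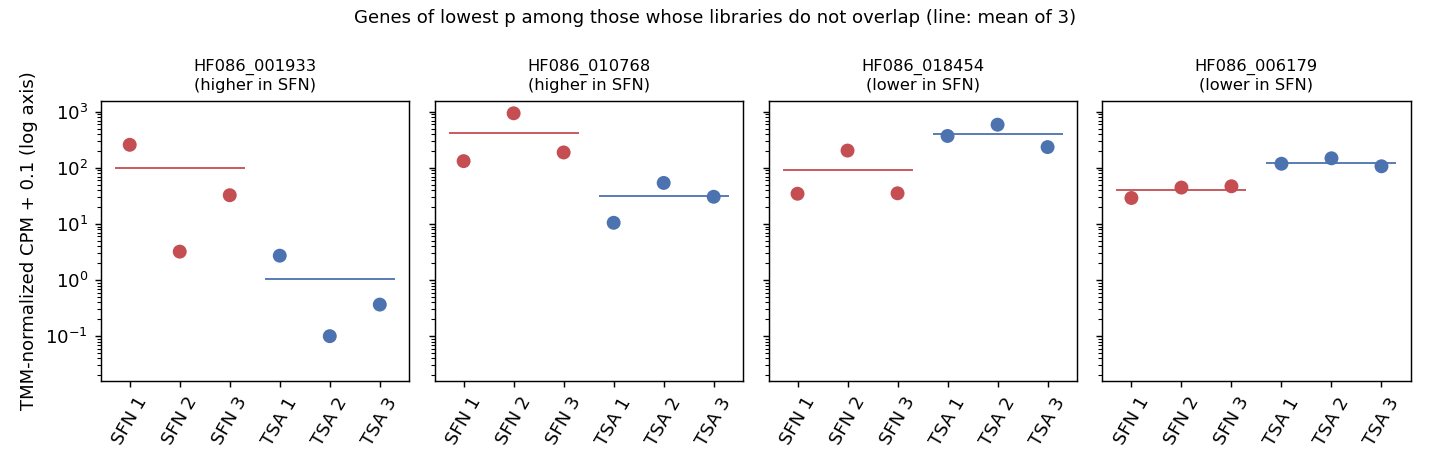
TMM-normalized CPM plus 0.1 (log axis) of the 4 named genes in each library, with SFN libraries in red, TSA libraries in blue and a line at the mean of each group of 3. HF086_006179 shows the tightest groups, 28.97 to 46.9 CPM under SFN and 107 to 148 CPM under TSA, and in HF086_001933 the groups nearly meet at SFN replicate 2 (3.11 CPM) and TSA replicate 1 (2.62 CPM).

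The named genes can be set beside the controls only on a scale set over all 9 *S*. *exigua* libraries. On it, the control libraries of HF086_010768 were at 13.5, 0.196 and 0.097 CPM in replicates 1, 2 and 3, the SFN libraries at 111 to 803 CPM and the TSA libraries at 9.03 to 45.8 CPM. HF086_006179 was at 91.3, 1.96 and 2.62 CPM in the controls, 24.3 to 40.4 CPM under SFN and 90.8 to 126 CPM under TSA. Control replicate 1 thus differed from the other controls in both genes. Over the 24 genes, the median control level was 2.82, 0.123 and 0.194 CPM in replicates 1, 2 and 3, and the control mean was below both inhibitor means in 20 genes and between them in 4. All of these levels use the same 3 controls. The 24 genes were chosen for SFN levels above TSA, and the controls had no part in the filter. A control mean below SFN therefore follows in part from the choice and is not a separate result. All control libraries lay below all TSA libraries in 4 of the 24 genes.

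Larger differences ran through the libraries without following the inhibitor. The highest of the 6 libraries exceeded the lowest by 32-fold or more, in log2 CPM with a prior count of 2, for 335 genes (6.15%). The most common pattern among them held 130 genes (38.8%), which were above their own mean in SFN replicates 1 and 3 and TSA replicate 1 and below it in the other libraries. Their median level was 77.1 CPM in SFN replicate 1, 2.37 CPM in SFN replicate 2 and 18.8 CPM in SFN replicate 3, and 62.6, 0.385 and 0.398 CPM in TSA replicates 1, 2 and 3. The median of TSA replicate 1 was thus close to that of the highest SFN library, while the other TSA libraries were the lowest of all. They were also near 0 in the controls, with medians of 1.45, 1.35 and 0.704 CPM on the scale of all 9 libraries.

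The pattern that does follow the inhibitor was less frequent. All SFN libraries were above and all TSA libraries below the gene's mean for 33 of the 335 genes (9.85%), and none of them showed the opposite arrangement. A further 23 genes (6.87%) were above their mean in SFN replicate 2 and TSA replicates 1 and 3, with medians of 119 CPM in SFN replicate 2 and 0.856 CPM in SFN replicate 3. Of the 390 genes fitted 2-fold or more higher under SFN, 225 were among the 335, and 119 were among the 130 of the commonest pattern, whose definition makes the groups overlap. The fold changes of this pattern depended on the replicate number as a block in the model. With it the 130 genes had a median log2 fold change of 2.84 and 3 were below 0, and without it the median was 0.97, 63 were 2-fold or more higher under SFN and 38 were below 0. An unadjusted p under 0.05 was found for 44 of them with the block and for 1 without it. The 33 genes that follow the inhibitor had medians of 3.62 and 3.65 with and without it. Their definition puts the SFN and TSA libraries on opposite sides of the gene's mean. Their large and stable fold changes therefore follow in part from the choice and are not separate support. At the other end, 2132 genes (39.1%) varied by less than 2-fold over all 6 libraries, with a median absolute log2 fold change of 0.16 between the inhibitors.

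**Figure D4:**
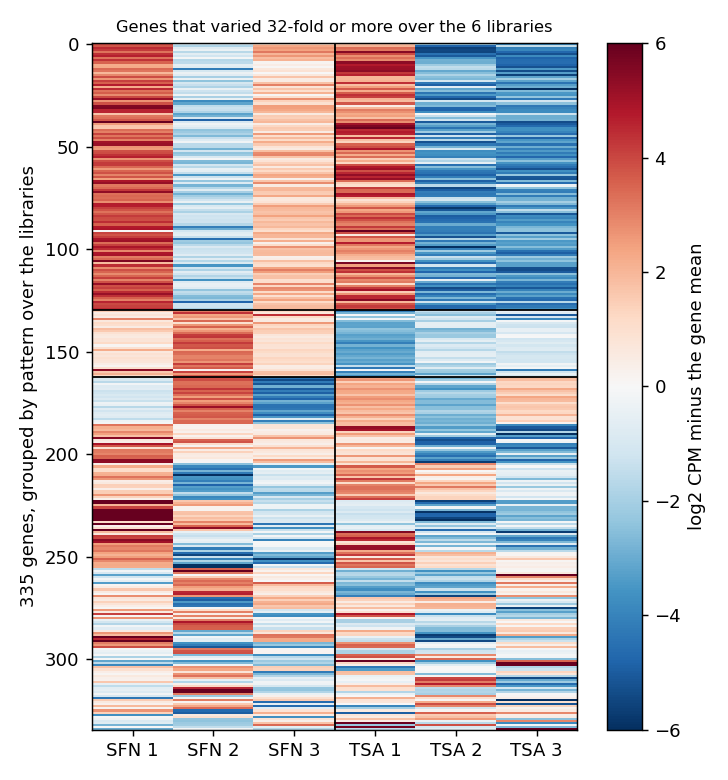
Log2 CPM minus the gene's own mean (red above, blue below, colour scale from -6 to 6) for the 335 genes that varied 32-fold or more over the 6 libraries, in rows grouped by pattern with the commonest first. The first block of 130 genes is red in SFN replicates 1 and 3 and TSA replicate 1, and the second block of 33 genes is red in all SFN libraries and blue in all TSA libraries.

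Of the 10 most abundant transcripts, 4 varied by more than 10-fold over the 6 libraries and the other 6 by less than 2.5-fold. The first in rank had 34440, 774 and 63792 CPM in SFN replicates 1, 2 and 3 and 62081, 98802 and 18541 CPM in TSA replicates 1, 2 and 3. The gene of rank 3, whose identifier is numbered next to it, had 12152, 314 and 35724 CPM under SFN and 22260, 36397 and 1382 CPM under TSA. Both were lowest in SFN replicate 2 and next lowest in TSA replicate 3. Their log2 fold changes between the inhibitors were -1.34 (95% interval -6.99 to 4.32) and -0.90 (95% interval -8.77 to 6.97), so that large differences in either direction lay within the intervals. Ranks 8 and 9 varied 12.1- and 12.7-fold and were also lowest in SFN replicate 2. On the TMM scale, ranks 2, 4 and 10 were lower in all SFN libraries than in all TSA libraries. Scaled by library size only, rank 10 remained so, but ranks 2 and 4 overlapped. Rank 2 then reached 19427 CPM in SFN replicate 2 against 17589 CPM in TSA replicate 1. Rank 4 had 14016 to 14091 CPM under SFN and 13431 to 17598 CPM under TSA. The values below are on the TMM scale. Rank 2 had 12085 to 18302 CPM under SFN and 18966 to 27848 CPM under TSA, with a log2 fold change of -0.58 (95% interval -1.41 to 0.26). Rank 4 had 12662 to 14419 CPM under SFN and 14731 to 16934 CPM under TSA, with a log2 fold change of -0.26 (95% interval -1.09 to 0.57). Rank 10 had 4353 to 5472 CPM under SFN and 7901 to 9847 CPM under TSA, and its log2 fold change was -0.78 (95% interval -1.67 to 0.12). The edgeR quasi-likelihood adjusted p was 0.968 for each of these 3 genes. The libraries of ranks 5, 6 and 7 overlapped between the inhibitors.

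Libraries were compared in pairs by their distance, taken as the absolute log2 CPM difference at the median gene. The 9 pairs of an SFN with a TSA library were 0.31 to 0.72 apart (mean 0.48), the 3 pairs within SFN 0.31 to 0.70 (mean 0.55) and the 3 pairs within TSA 0.33 to 0.44 (mean 0.40). Pairs of different inhibitors were on average 0.01 farther apart than pairs of the same inhibitor, and the ranges of the pairs overlapped. With 1 library left out this difference ran from -0.07 (without TSA replicate 2) to 0.08 (without SFN replicate 3), so its sign was not stable. The 5 pairs that held SFN replicate 2 were the farthest apart, at 0.58 to 0.72. Without it, the means were 0.39 between the inhibitors and 0.37 within them, and the closest pair of all was SFN replicates 1 and 3. With all libraries thinned to the depth of SFN replicate 2, the mean difference between and within inhibitors was again 0.01. Pairs holding SFN replicate 2 are of both kinds, so this value cannot show what part its low depth had in its distances. That part was not tested.

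**Figure D5:**
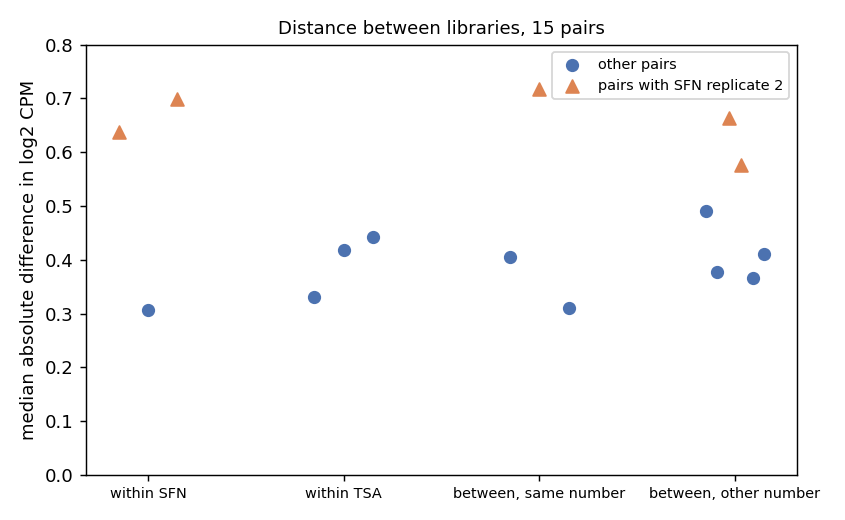
Median absolute difference in log2 CPM for each of the 15 pairs of libraries (vertical axis, from 0), grouped by whether the pair shares the inhibitor or the replicate number. Pairs between the inhibitors span the same range as pairs within them, and the 5 pairs holding SFN replicate 2 (triangles) lie highest, at 0.58 to 0.72.

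The spread between replicates was described in the same units. The median SD of log2 CPM was 0.46 over the SFN libraries and 0.34 over the TSA libraries, and it was larger under SFN for 3401 genes (62.4%). This order depended on 1 library. The difference of the medians (SFN minus TSA) was 0.13 with all libraries and -0.11 without SFN replicate 2. The first principal component of the tested genes (44.4% of the variance) did not follow the inhibitor and placed SFN replicates 1 and 3 and TSA replicate 1 on one side and the other libraries on the opposite side. On the second component (27.6%) the SFN libraries scored -13.7, -67.8 and 8.49 in replicates 1, 2 and 3 and the TSA libraries 15.5, 45.8 and 11.7, so that all SFN libraries lay below all TSA libraries. The closest scores there were those of SFN replicate 3 and TSA replicate 3, and SFN replicate 2 and TSA replicate 2 were the extremes.

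The overall makeup of the libraries overlapped between the inhibitors. The 10 most abundant genes took 13.3%, 7.99% and 19.8% of all counts in SFN replicates 1, 2 and 3 and 16.3%, 20.4% and 12.1% in TSA replicates 1, 2 and 3 (exact permutation test, two-sided, p = 0.6; the smallest p it can give is 0.1). The 100 most abundant genes took 38.8% ± 4.0 (SD, n = 3) under SFN and 42.0% ± 3.1 (SD, n = 3) under TSA (exact permutation test, p = 0.4). After thinning to 6352561 counts, 12591 ± 661 genes (SD, n = 3) were detected under SFN and 11771 ± 635 (SD, n = 3) under TSA (exact permutation test, p = 0.3), and without thinning 13480 ± 388 and 13088 ± 769. After adjustment over the 6 such measures, every exact permutation p was 0.6, and with 3 libraries per inhibitor none could fall below 0.05.

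Averaged over the 3 controls, each inhibitor was farther from the control than from the other inhibitor. Over the same 5447 genes, on the scale of all 9 libraries, the mean distance was 0.89 for pairs of a control with an SFN library and 0.83 for pairs of a control with a TSA library, against 0.48 for pairs of SFN with TSA, while controls were 0.63 from each other. Control replicate 1 stood 0.41 to 0.58 from every inhibitor library other than SFN replicate 2 (0.78), within the range of SFN with TSA pairs, and 0.82 and 0.69 from control replicates 2 and 3. Control replicates 2 and 3 stood 0.86 to 1.21 from the inhibitor libraries. These are descriptions, since the pairs share libraries. With the same model fitted to 6 libraries at a time, SFN against control gave 268 genes at an adjusted p under 0.05 (4.71% of 5690; 29 higher and 239 lower) and TSA against control 0 genes (0% of 5227), in the same edgeR test. Without the replicate number as a block in the model the counts were 449 and 303. An unadjusted p under 0.05 was found for 1450 genes (25.5%) and 1520 genes (29.1%), and the 95% interval lay within 2-fold for 31 genes (0.545%) and 372 genes (7.12%). The median absolute log2 fold change was 0.85 and 0.83, compared with 0.29 between the inhibitors. Each median is over the genes that passed the filter in its own 6 libraries. Genes high only in the controls thus enter only the comparisons with the control. Both comparisons use the same 3 controls, and the higher count under SFN is not a test of SFN against TSA.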

How the data were processed

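RNA was sequenced from pooled *S*. *exigua* fat bodies. The authors trimmed reads with Trimmomatic 0.39, aligned them with HISAT2 2.2.1 to the TB_SE_WUR_2020 genome and used featureCounts for the deposited raw counts per gene, which carry no normalization. Whether counting used strand is not given in the sources used here, so overlapping genes on opposite strands cannot be told apart. Per-sample columns of no mapped sample numbered 0. Normalized tables and the *T*. *ni* tables were not used.

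The fit used edgeR 4.0.16 under R 4.3.3. The genes above 10 CPM on average in the 6 libraries were scaled by TMM and given the quasi-likelihood test, and p-values were adjusted by Benjamini-Hochberg over all of them at a threshold of 0.05. The model held the inhibitor and the replicate number as a block, a reading of the pairing that the methods of the study mention without giving the terms. Intervals of fold changes come from the estimate and its standard error with the total degrees of freedom. Log2 CPM used a prior count of 2. The labels do not say whether the pools came from separate cultures, so p-values measure only the spread between these pools. The limit given for a count of 0 covers counting error only.

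Named genes were those of lowest unadjusted p in the fit with the block, 2 per direction, among genes whose SFN and TSA libraries do not overlap, a rule for the case in which no gene is called. The members, lists and tests were chosen with earlier results of these data known. The model was run on simulated counts drawn without an effect of replicate number. The outcome is not reported here, and it does not cover patterns that cut across the inhibitors. Alternatives were other scalings, filters, tests (DESeq2 1.42.0, limma 3.58.1), the fit without the block, a fit with the controls, and each library left out.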

Additional observations from a re-analysis of the deposited data

How the results depend on the processing

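Of the results above, the count of 0 genes called by edgeR's quasi-likelihood test remained 0 at an adjusted p under 0.1 and 0.01, with each other scaling, with a mean CPM over 1, with all 9 libraries in the fit, and with each library left out. It was 2 with no filter, and other tests called 97 (likelihood ratio), 170 (Wald test of DESeq2) and 9 genes (limma-voom). The replicate numbers did not consistently pair the libraries in expression, which was not tested. The correlations of deviations from the group means were 0.59, 0.10 and -0.10 for the same-numbered libraries 1, 2 and 3. That of number 1 was the highest of any SFN with TSA pair, while SFN replicate 2 correlated best with TSA replicate 3 (0.44). Without the replicate block 0 genes were called as well, 243 genes had an unadjusted p under 0.05 (136 higher under SFN and 107 lower), and 2014 had an interval within 2-fold. Without the block, the genes called against control numbered 449 for SFN and 303 for TSA.

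Genes with an unadjusted p under 0.05 numbered 128 with all 9 libraries in the fit, 441 with a mean CPM over 1, 601 with no filter, 426 by DESeq2, 447 by limma-voom and 177 to 365 with 1 library left out (lowest without SFN replicate 1, highest without TSA replicate 3). Genes with an interval within 2-fold numbered 727 with library size only, 880 with no filter, 664 by likelihood ratio, 2301 by limma-voom and 0 to 1216 with 1 library left out. With library size only, the median log2 fold change moved from 0.02 to 0.22, and the genes fitted 2-fold or more apart numbered 480 higher under SFN and 124 lower, against 390 and 177. They numbered 1079 and 399 with a mean CPM over 1 and 3640 and 2040 with no filter. Leaving out 1 library gave 350 to 591 higher and 166 to 478 lower. The median absolute log2 fold change was 0.59 with no filter and 0.28 to 0.46 with 1 library left out.

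The genes whose libraries do not overlap numbered 367 higher and 139 lower under SFN with library size only, and 534 higher and 459 lower with a mean CPM over 1. With 1 library left out they numbered 402 to 835 higher and 345 to 710 lower, since fewer libraries overlap less often. Genes at least 2-fold apart numbered 64 higher and 9 lower with a mean CPM over 1, and 30 to 152 higher and 5 to 21 lower with 1 library left out. These alternatives to the 2-fold gap were chosen after seeing the data, as were those of the fitted 2-fold counts. The difference in replicate spread between SFN and TSA ranged from -0.11 (without SFN replicate 2) to 0.23 (without TSA replicate 3). The mean distance between minus within inhibitors ranged from -0.07 (without TSA replicate 2) to 0.08 (without SFN replicate 3). The genes that varied 16-fold or more, or 64-fold or more, numbered 473 and 272, and the commonest pattern held 28.3% and 44.5% of them. With the block in the model, the library that shares the number of the one left out no longer informs the difference, so these fits rest on 4 libraries. The cause of the other shifts was not tested. With 3 pools per inhibitor, 1 of them of 6352561 counts, a difference of more than 2-fold lay within the interval for all but 1378 genes.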
